A study of Mus musculus with 15 samples.

Results

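The 35 genes described here drive DNA replication and cell division, and they were taken by name from the 32930 genes of the table: 21 act in mitosis and 14 in S phase, the period in which DNA is copied. RNA was sequenced from vascular tissue of C57BL/6 mice aged 10 weeks in 3 groups of 5 libraries. The Lien group was hypertensive and given Lien, which the series title spells out as liensinine, a lotus alkaloid. The AngII group was hypertensive, named for angiotensin II, the hormone that raises blood pressure and thickens vessel walls, and the NS group was labelled normal. The question, by that title, is whether liensinine lessens remodeling of the vessels. Doses, routes and lengths of treatment are not given in the labels, nor whether each library came from its own mouse, so the p-values measure the spread between libraries. The note on RNA extraction speaks of hearts, while each sample label gives vascular tissue. Smooth muscle and endothelial markers were present throughout, Myh11, the smooth muscle myosin, at 49.1 to 455 FPKM and Pecam1, an endothelial adhesion molecule, at 64.8 to 126.6 FPKM. Markers of other tissues were present unevenly. Summed cardiomyocyte markers ran over 5.77 to 250.6 FPKM in Lien, 4.93 to 1021 in AngII and 8.76 to 1854 in NS. Skeletal muscle markers ran over 10.7 to 70.6, 11.4 to 1374 and 31.4 to 11130 FPKM in these groups. Brown adipocyte markers ran over 465 to 4205, 1665 to 2746 and 753 to 3391 FPKM. Their part in the differences below was not tested as a cause. FPKM scales fragments to the length of a transcript and to the fragments of its library, so levels can be compared between genes.

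A dividing cell first loads the MCM helicase onto its DNA, then makes deoxynucleotides and copies the DNA with the sliding clamp PCNA in place. It then turns on the cyclin B kinase, builds a spindle, attaches chromosomes at their kinetochores and splits after the anaphase-promoting complex marks cyclins for destruction. Transcripts of both steps can rise and fall with the cycle, so in a tissue of mostly resting cells their level may follow the few cells that divide, whether of the vessel wall or lymphocytes and other blood cells within it. Members did not all vary alike here: Pcna ran over 25.2 to 41.8 FPKM and Mki67 over 0.136 to 3.28 FPKM. In bulk tissue, fewer dividing cells cannot be told apart from less of these RNAs per cell.

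Promoters of both classes are shown because mitotic and S-phase genes are known for different elements. Mitotic genes often carry CCAAT boxes and a cell cycle homology element (TTTGAA or TTCGAA) close to the start, and S-phase genes more often E2F sites (searched here in the short forms TTCGCGC and TTGGCGC). The set holds the 2 mitotic and the 2 S-phase members of highest mean level with a sequence in the table of RefSeq promoters (GRCm38.p6), 250 bases before to 50 after the start, 5′ to 3′ on the strand of the gene. Capitals mark these motifs on either strand, where ATTGG is CCAAT and TTCAAA is TTTGAA read on the other strand. Ube2c lies at chr2:164769679-164769978 (+ strand), Top2a at chr11:99024140-99024439 (- strand), Pcna at chr2:132253131-132253430 (- strand) and Mcm7 at chr5:138171834-138172133 (- strand, the first of 2 entries of this gene).
Ube2c: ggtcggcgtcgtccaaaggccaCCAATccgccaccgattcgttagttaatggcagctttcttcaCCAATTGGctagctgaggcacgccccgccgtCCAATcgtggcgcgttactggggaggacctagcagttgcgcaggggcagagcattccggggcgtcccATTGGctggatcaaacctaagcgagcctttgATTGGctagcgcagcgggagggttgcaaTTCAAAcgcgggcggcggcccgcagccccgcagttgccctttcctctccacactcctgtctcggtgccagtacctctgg
Top2a: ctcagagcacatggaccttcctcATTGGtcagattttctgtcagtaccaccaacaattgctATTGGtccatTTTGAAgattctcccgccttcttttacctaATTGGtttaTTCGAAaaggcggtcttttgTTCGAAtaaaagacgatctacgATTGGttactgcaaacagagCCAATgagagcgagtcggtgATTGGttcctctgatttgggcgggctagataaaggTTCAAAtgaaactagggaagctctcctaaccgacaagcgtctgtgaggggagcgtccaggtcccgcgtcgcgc
Pcna: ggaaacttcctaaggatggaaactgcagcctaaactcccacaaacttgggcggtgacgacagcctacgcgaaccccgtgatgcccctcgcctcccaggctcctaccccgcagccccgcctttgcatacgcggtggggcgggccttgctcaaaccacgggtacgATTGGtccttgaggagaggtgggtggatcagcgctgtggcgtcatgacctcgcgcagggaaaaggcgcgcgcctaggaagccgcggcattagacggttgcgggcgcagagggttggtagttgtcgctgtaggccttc
Mcm7: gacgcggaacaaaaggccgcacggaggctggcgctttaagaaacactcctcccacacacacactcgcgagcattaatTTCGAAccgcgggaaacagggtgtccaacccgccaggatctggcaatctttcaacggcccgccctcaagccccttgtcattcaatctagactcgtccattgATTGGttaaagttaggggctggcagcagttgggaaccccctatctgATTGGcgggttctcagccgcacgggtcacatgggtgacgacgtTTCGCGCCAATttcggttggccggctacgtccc
In Ube2c the TTTGAA element begins 29 bases before the start. In Top2a the nearest one begins 23 bases before it, and CCAAT boxes lie upstream of these elements in both. Top2a also holds TTTGAA 179 bases before the start and TTCGAA 140 and 120 bases before it, and Mcm7 holds TTCGAA 173 bases before its start. The Pcna window holds 1 CCAAT box and none of the other motifs, and in Mcm7 both E2F forms overlap each other and a CCAAT box just after the start. Of the 17 mitotic members with a sequence, 12 held TTTGAA, against 2 of 12 S-phase members and 20.2% of 27025 genes. TTCGAA was held by 3 of 17 and 1 of 12, against 1.80% of genes, and CCAAT by 15 of 17 and 9 of 12, against 41.1%. TTCGCGC was found in 1 of 17 mitotic and 3 of 12 S-phase members, against 1.81% of genes, and TTGGCGC in 3 of 17 and 4 of 12, against 2.85%. A match describes letters in this window, and no binding was measured here.

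The libraries differed in lymphocyte RNA within every group. The lymphoid score, the mean log2(FPKM + 1) of 14 T cell and 12 B cell genes, was 3.58 in AngII 7 and 3.93 in AngII 9, 2.29 in Lien 11 and 2.65 in NS 2. It was 0.42 to 0.86 in Lien 12 to 15, 0.35 to 1.51 in AngII 6, 8 and 10, and 0.67 to 1.10 in the remaining NS libraries. The summed level of the 26 genes ranged over 10.1 to 143.7 FPKM in Lien, 7.73 to 527 FPKM in AngII and 19.9 to 183 FPKM in NS, and none of the 26 was at 0 in every library. Glycam1, made by the high endothelial venules of lymph nodes, stood at 44.1 FPKM in Lien 11, 220 and 275 FPKM in AngII 7 and 9, and 11.3 FPKM in NS 2, against 0 to 3.04 FPKM elsewhere. The thymocyte genes Ptcra and Psmb11 were at most 0.0880 FPKM in every library, while Rag1, the recombinase of immature lymphocytes, stood at 1.90 FPKM in Lien 11 and 2.26 FPKM in AngII 8. The part of these cells in the group differences below was not tested as a cause, and values are given with and without the lymphocyte-rich libraries.

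Most members were expressed at a low level. Pcna, the clamp that holds DNA polymerase on the template, was the highest at 25.2 to 41.8 FPKM over the 15 libraries, followed by the helicase subunits Mcm6 at 4.04 to 16.3 FPKM and Mcm7 at 5.46 to 14.1 FPKM and by Rrm1, the large subunit of ribonucleotide reductase, at 5.96 to 10.5 FPKM. Among mitotic members Ube2c, the conjugating enzyme of the anaphase-promoting complex, and Top2a, the topoisomerase that untangles sister chromosomes, were highest, with maxima of 4.86 and 6.47 FPKM. Of the 35 members 30 passed the filter of at least 0.5 FPKM in at least 5 libraries. The spindle checkpoint kinase Bub1, the kinetochore motor Cenpe and the spindle motor Kif11 did not pass, nor did Cdc6, which loads the helicase. Cenpf, a kinetochore protein, was under 0.5 FPKM in every library. These 5 have values below but no test.

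**Figure D1:**
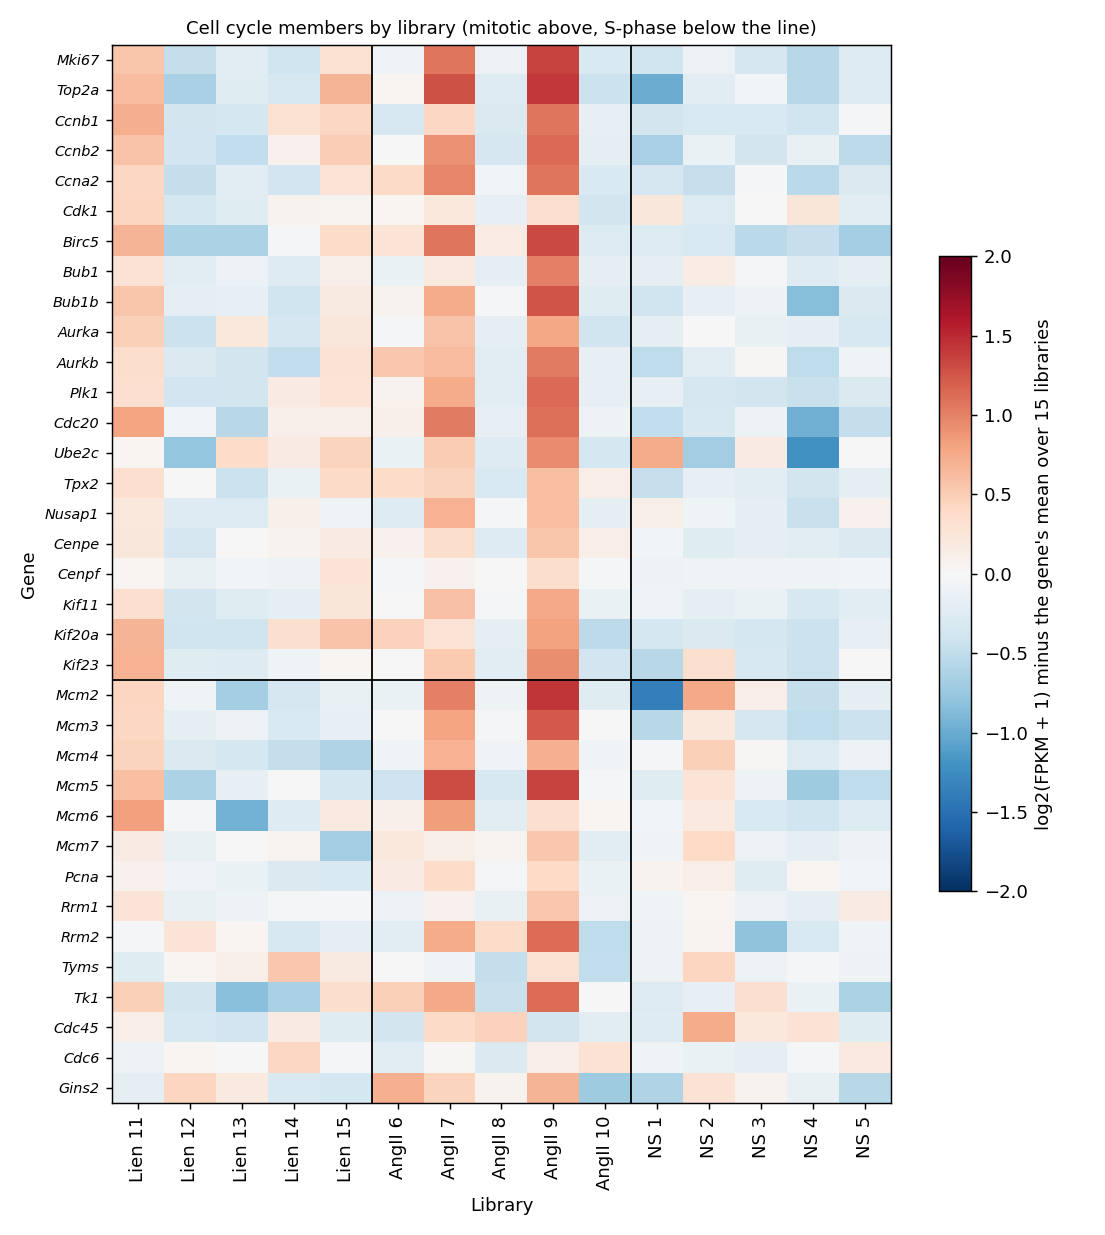
Level of each of the 35 members in each of the 15 libraries, shown as log2(FPKM + 1) minus the mean of that gene over all libraries, with libraries on the horizontal axis and mitotic genes above S-phase genes on the vertical axis. AngII 9 is the highest library for 19 mitotic and 9 S-phase members, and NS 2 is above the other NS libraries for 11 of 14 S-phase but 6 of 21 mitotic members.

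Levels varied widely between libraries of 1 group. AngII 7 or AngII 9 held the highest level of 20 of 21 mitotic and 10 of 14 S-phase members, and the pair ranked first and second for 14 and 7. The mean log2(FPKM + 1) of the mitotic members was 1.28, 0.48, 0.59, 0.75 and 1.11 in Lien 11 to 15, 0.91, 1.47, 0.68, 1.77 and 0.62 in AngII 6 to 10, and 0.58, 0.64, 0.66, 0.40 and 0.61 in NS 1 to 5. For the S-phase members it was 2.22, 1.88, 1.75, 1.86 and 1.81 in Lien 11 to 15, 1.99, 2.52, 1.90, 2.66 and 1.82 in AngII 6 to 10, and 1.72, 2.25, 1.87, 1.77 and 1.78 in NS 1 to 5. The classes parted in some libraries. NS 2 lay above the other 4 NS libraries for 11 of 14 S-phase members but for 6 of 21 mitotic members. Lien 15 lay above Lien 12, 13 and 14 for 19 of 21 mitotic members but for 2 of 14 S-phase members. Lien 11 was high in both classes, above NS 2 for 21 of 21 mitotic and 6 of 14 S-phase members.

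**Figure D2:**
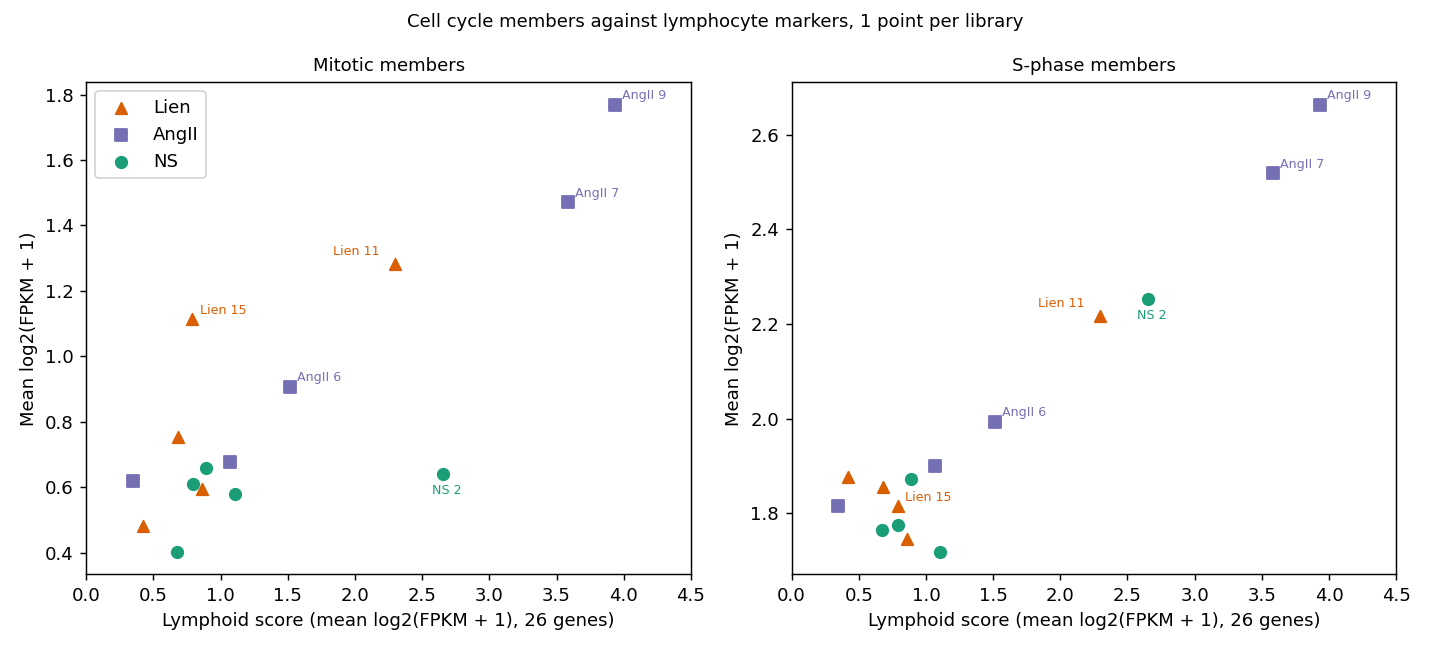
Mean log2(FPKM + 1) of the 21 mitotic members (left) and the 14 S-phase members (right) against the lymphoid score, 1 point per library, with 6 libraries named. NS 2 stands at 2.65 on the lymphoid axis with a mitotic mean of 0.64 and an S-phase mean of 2.25, and Lien 15 at 0.79 with a mitotic mean of 1.11.

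Members of 1 class varied together to different degrees. Across the 15 libraries the median Pearson r of log2(FPKM + 1) was 0.81 over the 210 pairs of mitotic members, 0.52 over the 91 pairs of S-phase members and 0.56 over the 294 pairs between classes. These points share their libraries, depth and content of other cells, so r is a description. Kif11 at 0.98, and Mki67 and Plk1 at 0.97 each, lay closest to the mean of the other mitotic members, and Ube2c (0.59) and Cdk1 (0.60) farthest from it. Mcm3 was closest to the mean of the other S-phase members (0.94), while Tyms (0.17), Cdc45 (0.16) and Cdc6 (-0.09) hardly followed it. Protein-coding transcripts made up 13.4% of the level of Cdc6, 24.5% of that of Tk1 and 36.1% of that of Tyms.

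The first question is what differed between AngII and NS. Mitotic genes stood higher in the AngII group on average, up to a log2 difference of 0.96 for Birc5, but no member passed the test. With limma, 0 of the 30 members tested had an adjusted p under 0.05, against 12 of 15586 genes (0.077%). At an unadjusted p under 0.05 there were 10 mitotic and 1 S-phase members, all with higher values in AngII, against 5.43% of all genes on that side. Over all members, tested or not, the group mean on the log2(FPKM + 1) scale was higher in AngII for 21 of 21 mitotic and 12 of 14 S-phase members. Median differences were 0.48 and 0.30, and 0.12 over all genes tested. Many members varied together across libraries, so the counts of members are not counts of independent observations. Quantile normalization and scaling of the libraries to 1 median moved the median of all genes by -0.13 and -0.12, and gave 20 of 21 mitotic and 11 of 14 S-phase members under either scaling.

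The difference rested largely on AngII 7 and AngII 9. Without that pair 15 of 21 mitotic and 9 of 14 S-phase members had a higher mean in AngII. The medians were then 0.19 and 0.02, and 0.05 over all genes, so the S-phase median was below that of all genes. Without Lien 11 and NS 2 as well, the counts were 17 and 10, with medians of 0.22 and 0.13, and 0.08 over all genes. Lymphocyte genes lay on the same side: 14 of 14 T cell and 12 of 12 B cell genes had a higher mean in AngII than in NS. So had 9 of 10 macrophage genes (median log2 difference 0.28) and 8 of 8 germinal centre B cell genes (0.32). All T cell and macrophage genes were tested, but 11 of the 12 B cell and 3 of the 8 germinal centre genes. None of those tested passed. Summed macrophage levels ran over 444.6 to 1245 FPKM in AngII and 373 to 744 FPKM in NS. Summed germinal centre levels ran over 16.8 to 33.3 FPKM in AngII and 12.2 to 23.4 FPKM in NS. They did not always follow the summed B cell levels: AngII 7 had 16.8 and 220.9 FPKM, AngII 6 had 33.3 and 31.8 FPKM, and AngII 9 had 30.5 and 308.4 FPKM. The germinal centre list is therefore not read as an amount of germinal centre cells. The part of these cell types in the difference was not tested. With 1 library left out at a time, the mitotic median ran from 0.33 (without AngII 9) to 0.57, and the S-phase median from 0.20 (without AngII 7) to 0.41.

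Mki67, the nuclear antigen Ki-67 that marks cycling cells, stood at 1.45, 0.200, 0.451, 0.270 and 1.07 FPKM in Lien 11 to 15, 0.588, 2.53, 0.548, 3.28 and 0.364 FPKM in AngII 6 to 10, and 0.268, 0.545, 0.335, 0.136 and 0.386 FPKM in NS 1 to 5. Its means were 0.689 ± 0.548 FPKM in Lien, 1.46 ± 1.35 FPKM in AngII and 0.334 ± 0.151 FPKM in NS (SD, n = 5 each). AngII 7, AngII 9, Lien 11 and Lien 15 were high, the other 11 libraries were at 0.588 FPKM or less, and the groups overlapped. Between AngII and NS the log2 difference was 0.72 (SE 0.31, limma adjusted p = 0.697), it was 0.48 without AngII 9, and it was 0.17 without AngII 7 and 9. The gene lies on chromosome 7 from 135689784 to 135716361 (GRCm38, - strand).

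Birc5, the survivin subunit of the chromosomal passenger complex, was at 1.86, 0.157, 0.156, 0.750 and 1.32 FPKM in Lien 11 to 15, 1.17, 2.76, 0.981, 3.49 and 0.490 FPKM in AngII 6 to 10, and 0.487, 0.446, 0.236, 0.302 and 0.122 FPKM in NS 1 to 5. All AngII libraries were above all NS libraries, though AngII 10 at 0.490 and NS 1 at 0.487 nearly met. The log2 difference between AngII and NS was 0.96 (SE 0.31, limma adjusted p = 0.512). Birc5 was 1 of 30 members tested without overlap between these groups, against 1.51% of the genes tested on that side. The untested Cenpf did not overlap either. Cenpf was at 0.116 to 0.467 FPKM in AngII and at 0.0736 to 0.104 FPKM in NS.

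Cdc20, the activator of the anaphase-promoting complex, was at 2.85, 1.12, 0.514, 1.38 and 1.39 FPKM in Lien 11 to 15, 1.38, 3.54, 0.974, 3.76 and 1.07 FPKM in AngII 6 to 10, and 0.568, 0.779, 1.06, 0.137 and 0.594 FPKM in NS 1 to 5. In AngII it overlapped NS through AngII 8, which was below NS 3, and its log2 difference was 0.87 (SE 0.30, limma adjusted p = 0.550). Plk1, the polo-like kinase of mitotic entry, was at 0.940, 0.172, 0.184, 0.718 and 0.847 FPKM in Lien 11 to 15, 0.614, 1.58, 0.330, 2.35 and 0.367 FPKM in AngII 6 to 10, and 0.364, 0.218, 0.189, 0.126 and 0.256 FPKM in NS 1 to 5. AngII 7 and 9 stood apart, and AngII 8 and 10 were next to NS 1. Top2a was at 3.34, 0.798, 1.37, 1.24 and 3.52 FPKM in Lien 11 to 15, 1.90, 5.78, 1.36, 6.47 and 1.08 FPKM in AngII 6 to 10, and 0.414, 1.42, 1.70, 0.906 and 1.32 FPKM in NS 1 to 5. High values were again those of Lien 11, Lien 15, AngII 7 and AngII 9, and NS 3 lay above AngII 8 and AngII 10.

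The subunits of the cyclin B kinase overlapped between groups. Ccnb1, cyclin B1, was at 1.57, 0.206, 0.218, 0.924 and 1.08 FPKM in Lien 11 to 15, 0.251, 1.07, 0.282, 2.28 and 0.389 FPKM in AngII 6 to 10, and 0.210, 0.260, 0.258, 0.187 and 0.529 FPKM in NS 1 to 5. Besides AngII 7 and 9, it was high in 3 of the Lien libraries, and AngII 6, 8 and 10 lay within the NS range. Cdk1, its catalytic partner, was at 1.50, 0.451, 0.558, 0.941 and 0.911 FPKM in Lien 11 to 15, 0.909, 1.15, 0.656, 1.34 and 0.441 FPKM in AngII 6 to 10, and 1.17, 0.536, 0.837, 1.19 and 0.576 FPKM in NS 1 to 5. Its group means were 0.872 ± 0.411, 0.899 ± 0.363 and 0.863 ± 0.314 FPKM in Lien, AngII and NS (SD, n = 5 each), and the groups overlapped over nearly their whole range.

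Of the S-phase genes, Mcm3, a helicase subunit, was at 5.63, 3.38, 3.57, 3.02 and 3.46 FPKM in Lien 11 to 15, 3.94, 7.61, 3.88, 10.7 and 3.98 FPKM in AngII 6 to 10, and 2.37, 4.78, 2.94, 2.48 and 2.68 FPKM in NS 1 to 5. AngII 7 and 9 were highest, followed by Lien 11 and NS 2, and the other AngII libraries (3.88 to 3.98 FPKM) lay between NS 2 and the other NS libraries. Its log2 difference between AngII and NS was 0.72 (SE 0.26, limma adjusted p = 0.574). Rrm2, the small subunit of ribonucleotide reductase that limits deoxynucleotide supply, was at 1.72, 2.31, 1.85, 1.22 and 1.41 FPKM in Lien 11 to 15, 1.36, 3.61, 2.55, 4.96 and 0.939 FPKM in AngII 6 to 10, and 1.54, 1.88, 0.582, 1.24 and 1.60 FPKM in NS 1 to 5. AngII 10 was below all NS libraries but NS 3, and AngII 7, 8 and 9 were above all of them, with a log2 difference between AngII and NS of 0.55 (SE 0.28, limma adjusted p = 0.711), or 0.34 without AngII 9. Mcm2, another helicase subunit, was at 2.64, 1.54, 0.679, 1.15 and 1.44 FPKM in Lien 11 to 15, 1.46, 4.42, 1.52, 6.27 and 1.29 FPKM in AngII 6 to 10, and 0.0502, 3.56, 1.98, 0.949 and 1.36 FPKM in NS 1 to 5. It was high in NS 2 and AngII 7 and 9 and almost unseen in NS 1.

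The remaining members are given by their ranges. Ccnb2, cyclin B2, ran over 0.379 to 1.88 FPKM in Lien, 0.534 to 3.28 FPKM in AngII and 0.246 to 0.771 FPKM in NS, and Bub1b, the checkpoint protein BubR1, over 0.757 to 2.41 FPKM in Lien, 0.974 to 4.58 FPKM in AngII and 0.294 to 1.16 FPKM in NS. Its partner Bub1 ran over 0 to 0.458 FPKM in Lien, 0.0341 to 1.40 FPKM in AngII and 0 to 0.318 FPKM in NS. All 3 groups overlapped in each, with AngII 9 at the top.

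Of the spindle genes, Aurka, the kinase of the centrosomes, ran over 0.297 to 1.42 FPKM in Lien, 0.332 to 1.98 FPKM in AngII and 0.395 to 0.731 FPKM in NS. Tpx2, its activator, ran over 0.352 to 1.39 FPKM in Lien, 0.468 to 1.76 FPKM in AngII and 0.326 to 0.630 FPKM in NS. Nusap1, which binds spindle microtubules, ran over 0.410 to 0.977 FPKM in Lien, 0.430 to 1.77 FPKM in AngII and 0.260 to 0.860 FPKM in NS. In these 3 genes the AngII libraries reached above the NS maximum and overlapped it. Kif11 ran over 0.109 to 0.812 FPKM in Lien, 0.306 to 1.43 FPKM in AngII and 0.148 to 0.358 FPKM in NS, and Cenpe over 0.0678 to 0.569 FPKM in Lien, 0.122 to 0.977 FPKM in AngII and 0.0950 to 0.293 FPKM in NS. Ube2c ran over 0.782 to 3.14 FPKM in Lien, 1.39 to 4.86 FPKM in AngII and 0.318 to 4.11 FPKM in NS, with NS the widest group and NS 1 its top.

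On the S-phase side Mcm7 ran over 5.46 to 10.6 FPKM in Lien, 7.82 to 14.1 FPKM in AngII and 8.01 to 12.7 FPKM in NS, and Rrm1 over 6.12 to 8.36 FPKM in Lien, 6.10 to 10.5 FPKM in AngII and 5.96 to 7.78 FPKM in NS. Relative to their levels, these are the narrowest ranges after that of Pcna. Tk1, thymidine kinase, ran over 0.506 to 2.75 FPKM in Lien, 0.978 to 4.87 FPKM in AngII and 0.745 to 2.36 FPKM in NS, and Gins2, a helicase partner, over 0.404 to 1.43 FPKM in Lien, 0.102 to 1.94 FPKM in AngII and 0.180 to 1.21 FPKM in NS. Cdc6 ran over 0.191 to 0.724 FPKM in Lien, 0.0598 to 0.578 FPKM in AngII and 0.130 to 0.484 FPKM in NS, with its highest value in Lien 14.

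**Figure D3:**
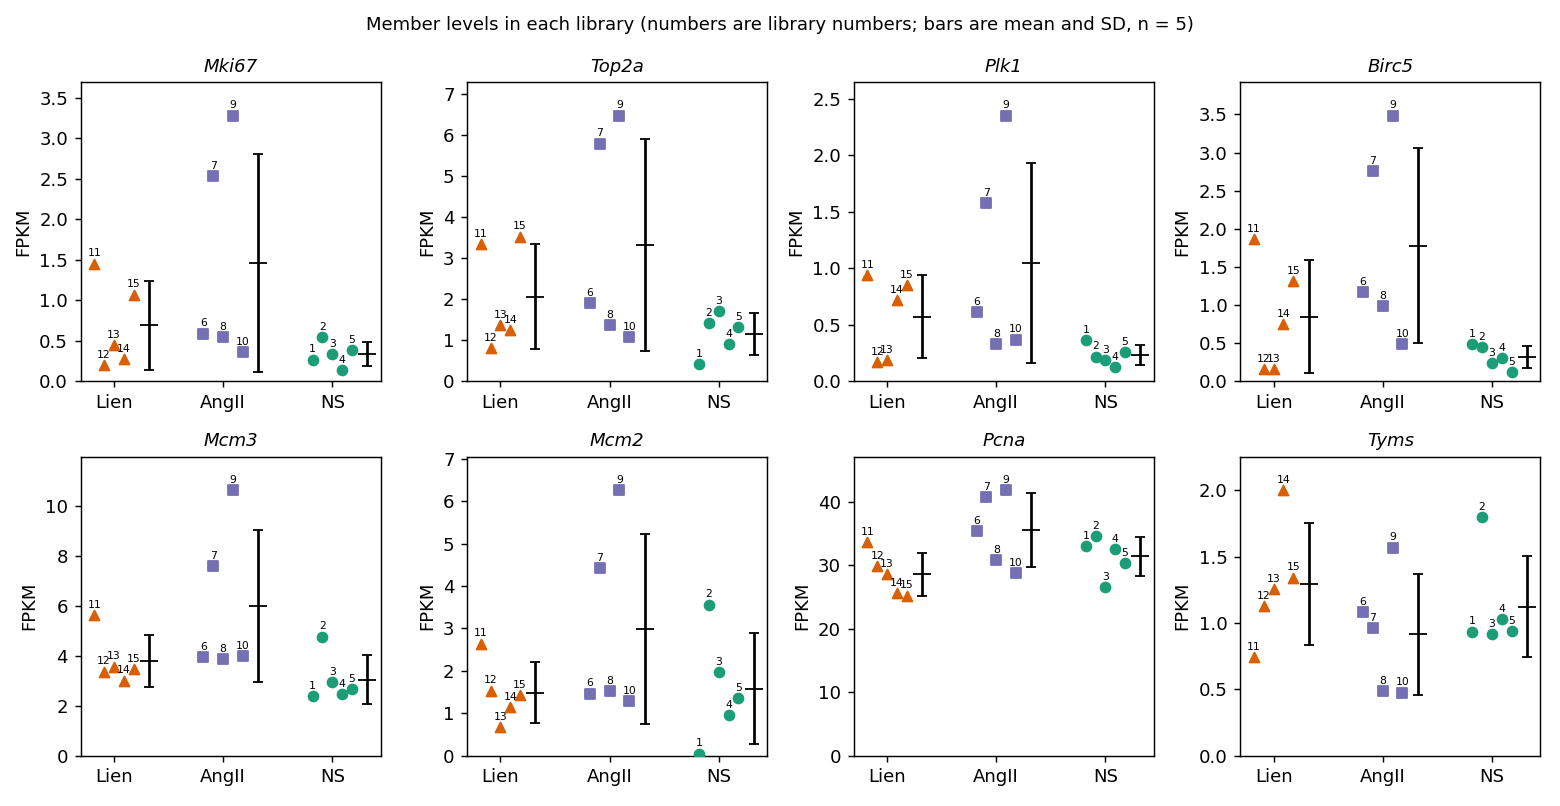
FPKM of 8 members in each library, by group (Lien, AngII, NS from left to right), with library numbers beside the points and the mean ± SD of 5 libraries as a black bar. Mki67, Top2a, Plk1 and Birc5 are high in AngII 7 and 9 and in Lien 11 and 15, while Mcm3 and Mcm2 are high in AngII 7 and 9, Lien 11 and NS 2, and Tyms shows no such order.

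The second question is what differed when Lien was added to hypertension, a comparison that shares the AngII libraries with the first. No member passed here either, 0 of 30, against 2 of 15586 genes (0.0128%). At an unadjusted p under 0.05 there was 1, Pcna, with a lower value in Lien, against 5.34% of all genes on that side, a share near the background. Group means were higher in Lien for 0 of 21 mitotic and 2 of 14 S-phase members, with median log2 differences of -0.23 and -0.29, and -0.13 over all genes. Quantile normalization shifted all genes by 0.15 and gave 6 of 21 and 3 of 14, and scaling to 1 median shifted them by 0.18 and gave 5 of 21 and 3 of 14. Without AngII 7 and 9 the mitotic direction turned: 17 of 21 mitotic and 5 of 14 S-phase members had a higher mean in Lien. The medians were then 0.12 and -0.04, and -0.06 over all genes. Without Lien 11 and NS 2 as well, it was 12 of 21 and 4 of 14, with medians of 0.02 and -0.16, and -0.13 over all genes. Of the T cell and B cell genes, 0 of 14 and 0 of 12 had a higher mean in Lien than in AngII, and of the macrophage and germinal centre B cell genes, 5 of 10 and 0 of 8. None of those tested passed, with 3 of the 8 germinal centre genes tested. The part of these cell types in the difference was not tested. With 1 library left out at a time, the mitotic median ran from -0.35 to -0.11 (without AngII 9; -0.16 without AngII 7) and the S-phase median from -0.44 (without AngII 10) to -0.21.

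Pcna was at 33.6, 29.8, 28.6, 25.6 and 25.2 FPKM in Lien 11 to 15, 35.4, 40.8, 30.8, 41.8 and 28.7 FPKM in AngII 6 to 10, and 33.0, 34.6, 26.5, 32.5 and 30.3 FPKM in NS 1 to 5. The means were 28.6 ± 3.42 FPKM in Lien, 35.5 ± 5.83 FPKM in AngII and 31.4 ± 3.12 FPKM in NS (SD, n = 5 each), and AngII 8 and 10 lay within the Lien range. Between Lien and AngII the log2 difference was -0.30 (SE 0.13, limma adjusted p = 0.740), and -0.15 without AngII 7 and 9. Between AngII and NS it was 0.16 (SE 0.13, limma adjusted p = 0.775), and 0.10 without AngII 9.

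Mcm4, a helicase subunit, was at 6.01, 3.20, 3.04, 2.68 and 2.41 FPKM in Lien 11 to 15, 3.88, 7.32, 3.91, 7.39 and 3.92 FPKM in AngII 6 to 10, and 4.09, 6.17, 4.25, 3.27 and 3.74 FPKM in NS 1 to 5. Lien 12 to 15 were below all AngII libraries and Lien 11 was among the highest, with a log2 difference between Lien and AngII of -0.49 (SE 0.24, limma adjusted p = 0.740). Aurkb, the kinase of the chromosomal passenger complex, was at 1.02, 0.284, 0.221, 0.123 and 0.925 FPKM in Lien 11 to 15, 1.29, 1.41, 0.355, 2.25 and 0.404 FPKM in AngII 6 to 10, and 0.112, 0.343, 0.600, 0.103 and 0.492 FPKM in NS 1 to 5. Its log2 difference was -0.46 (SE 0.25, limma adjusted p = 0.740), or -0.29 without AngII 9, with Lien 11 and 15 within the AngII range. Ccna2, cyclin A2, was at 1.80, 0.521, 0.806, 0.613 and 1.56 FPKM in Lien 11 to 15, 1.75, 3.15, 1.02, 3.46 and 0.707 FPKM in AngII 6 to 10, and 0.673, 0.541, 1.05, 0.456 and 0.736 FPKM in NS 1 to 5. It differed by -0.49 (SE 0.27, limma adjusted p = 0.740), or -0.33 without AngII 9, with AngII 6, 7 and 9 and Lien 11 and 15 high. For Mki67 the log2 difference between Lien and AngII was -0.43 (SE 0.31, limma adjusted p = 0.741), which was -0.19 without AngII 9 and turned to 0.12 without AngII 7 and 9 and to 0.02 with the lymphoid score as a covariate. With that covariate no other group difference of Mki67, Pcna or the members of smallest p changed sign, in any comparison. A difference that shrank without a change of sign was not counted, so the part of lymphocyte content was not tested.

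The third comparison sets Lien against NS. Mitotic members were mostly higher in Lien on average and S-phase members about evenly divided, and none passed, 0 of 30, against 36 of 15586 genes (0.231%). None had an unadjusted p under 0.05 either, against 3.36% of all genes on the higher and 3.70% on the lower side. Means were higher in Lien for 20 of 21 mitotic and 9 of 14 S-phase members, with median log2 differences of 0.25 and 0.08, and -0.01 over all genes. Those counts were 21 and 10 after quantile normalization, 21 and 9 after scaling to 1 median, and 19 and 8 without Lien 11 and NS 2 (AngII 7 and 9 take no part here). Of the T cell and B cell genes, 4 of 14 and 1 of 12 had a higher mean in Lien than in NS. Macrophage and germinal centre B cell genes had a higher mean in Lien than in NS in 10 of 10 and 8 of 8, with median log2 differences of 0.29 and 0.08. None of those tested passed, with 3 of the 8 germinal centre genes tested. The part of these cell types in the difference was not tested. Summed macrophage levels ran over 425.9 to 1405 FPKM in Lien and 373 to 744 FPKM in NS, with Lien 11 the highest. Leaving out 1 library at a time, the mitotic median ran from 0.18 (without Lien 11) to 0.35, and the S-phase median turned to -0.07 without Lien 11 and reached 0.15 without NS 2.

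Cdc20 had the smallest p, with a log2 difference between Lien and NS of 0.55 (SE 0.30, limma adjusted p = 0.761), and 0.37 without Lien 11. Kif20a, a motor of the dividing spindle midzone, was at 1.61, 0.240, 0.235, 1.03 and 1.44 FPKM in Lien 11 to 15, 1.26, 0.974, 0.437, 1.85 and 0.142 FPKM in AngII 6 to 10, and 0.286, 0.332, 0.278, 0.220 and 0.459 FPKM in NS 1 to 5. Lien 11, 14 and 15 were above all NS libraries and Lien 12 and 13 within them, with a log2 difference of 0.47 (SE 0.26, limma adjusted p = 0.782). Ccnb1 split the Lien libraries in the same way.

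Cdc45, which joins MCM and GINS in the active helicase, was at 0.463, 0.0623, 0.0253, 0.498 and 0.121 FPKM in Lien 11 to 15, 0.0288, 0.743, 0.835, 0.0298 and 0.144 FPKM in AngII 6 to 10, and 0.115, 1.23, 0.546, 0.621 and 0.123 FPKM in NS 1 to 5. Low and high values were mixed in every group, and the log2 difference between Lien and NS was -0.28 (SE 0.23, limma adjusted p = 0.900). Mcm4 differed by -0.28 (SE 0.24, limma adjusted p = 0.904), Pcna by -0.13 (SE 0.13, limma adjusted p = 0.926) and Mki67 by 0.29 (SE 0.31, limma adjusted p = 0.943). Without Lien 11 the value was 0.14 for Mki67 and -0.45 for Mcm4, and without NS 2 it was -0.16 for Mcm4. Mcm6 was at 16.1, 8.44, 4.04, 7.06 and 10.1 FPKM in Lien 11 to 15, 9.38, 16.3, 7.23, 11.2 and 8.99 FPKM in AngII 6 to 10, and 8.27, 10.1, 6.83, 6.31 and 6.98 FPKM in NS 1 to 5. Lien held both its second highest value and its lowest. Tyms, thymidylate synthase, was at 0.742, 1.12, 1.26, 2.00 and 1.34 FPKM in Lien 11 to 15, 1.08, 0.959, 0.486, 1.57 and 0.475 FPKM in AngII 6 to 10, and 0.934, 1.80, 0.916, 1.03 and 0.936 FPKM in NS 1 to 5. It was one of the members with a higher mean in Lien than in AngII (1.29 ± 0.458 and 0.914 ± 0.456 FPKM, SD, n = 5 each), and its ranges overlapped.

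**Figure D4:**
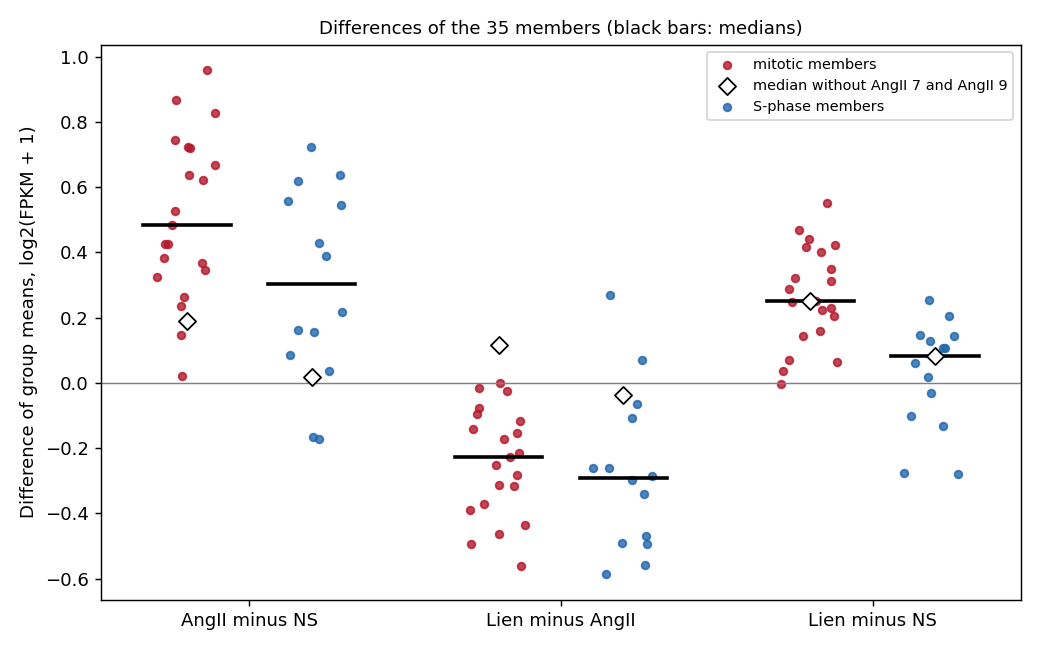
Log2 difference of group means for every member in the 3 comparisons, with mitotic and S-phase members as separate points. Black bars are their medians, and open diamonds their medians without AngII 7 and AngII 9. In AngII against NS the mitotic median is 0.48, and 0.19 without that pair. In Lien against AngII it is -0.23, and 0.12 without that pair. The median of all genes tested, 0.12 and -0.13 in these comparisons, is not drawn.

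Within groups, members were then set against lymphoid content. A limma fit with the 3 group means and the lymphoid score gave each gene a slope, the change in log2(FPKM + 1) per unit of the score. Of the members tested, 13 of 17 mitotic and 6 of 13 S-phase members rose with the score at an adjusted p under 0.05, against 1763 of 15586 genes (11.3%). None fell, against 0.115% of genes. With no filter, which takes in all 35 members, 18 were called, against 7.24% of 29989 genes. The median slope was 0.29 for the mitotic and 0.27 for the S-phase members tested, and 0.09 over all genes.

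Genes of the helicase and of mitosis led together. Mcm3 had the smallest p, with a slope of 0.35 (SE 0.050, limma adjusted p = 0.000333), and Mki67 followed with 0.42 (SE 0.064, limma adjusted p = 0.000569). Mcm5, a helicase subunit, had a slope of 0.49 (SE 0.076, limma adjusted p = 0.000652), and Kif23, a motor of cytokinesis, 0.36 (SE 0.057, limma adjusted p = 0.000749). This last pair was picked by its slope on the score, so its levels describe that slope and add no support to it. Kif23 was at 2.54, 0.842, 0.829, 1.07 and 1.24 FPKM in Lien 11 to 15, 1.20, 2.16, 0.872, 3.15 and 0.676 FPKM in AngII 6 to 10, and 0.494, 1.73, 0.750, 0.633 and 1.18 FPKM in NS 1 to 5. Mcm5 was at 3.15, 0.780, 1.46, 1.73 and 1.15 FPKM in Lien 11 to 15, 1.06, 5.82, 1.20, 5.99 and 1.69 FPKM in AngII 6 to 10, and 1.32, 2.31, 1.57, 0.680 and 0.927 FPKM in NS 1 to 5. In both genes the highest value of each group was that of its library richest in lymphocyte genes, AngII 9, Lien 11 and NS 2. Below these the order did not always follow the score. Mcm5 was lower in AngII 6 (score 1.51) than in AngII 10 (score 0.35), and Kif23 was lowest of all in NS 1 (score 1.10). Pcna passed with a small slope of 0.14 (SE 0.038, limma adjusted p = 0.0322), and its call was lost in 6 of the 15 fits that left out 1 library, those without Lien 11, AngII 7, 8, 9 or 10, or NS 2.

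The other members called were Aurka (0.29), Bub1b (0.35), Birc5 (0.39), Top2a (0.47), Cdc20 (0.36), Ccnb2 (0.36), Plk1 (0.29), Ccna2 (0.31), Nusap1 (0.22), Ccnb1 (0.29) and Aurkb (0.26) on the mitotic side, each value a slope. On the S-phase side they were Mcm4 (0.30), Mcm2 (0.48) and Rrm2 (0.29). Kif20a (0.25), Tpx2 (0.15), Cdk1 (0.14) and Ube2c (0.22) did not pass, nor did Rrm1 (0.14), Mcm7 (0.18), Mcm6 (0.27), Tk1 (0.30), Gins2 (0.21), Tyms (0.13) and Cdc45 (0.10).

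These calls rested on few libraries. Without AngII 9, 8 members were called, against 6.45% of genes, and without AngII 7 and 9 together, 1 was, Kif23 (slope 0.40, SE 0.094, limma adjusted p = 0.0341), against 5.83% of genes. There Mcm4 had a slope of 0.35 (limma adjusted p = 0.0512) and Mcm3 of 0.32 (limma adjusted p = 0.0515). Leaving out Lien 11 and NS 2 as well called 0 members and 0 genes in all. Leaving out each library in turn, the background ran from 6.45% to 15.2% of genes. A filter at 2 FPKM kept 8 members and called 3, against 10.2% of genes. Scaling mattered too: 4 members were called after quantile normalization, against 4.88% of genes, and 6 after scaling to 1 median, against 4.33%.

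Other marker lists were fitted in place of the lymphoid score. The T cell list alone called 10 of 17 mitotic and 4 of 13 S-phase members (11% of genes), and the B cell list alone 13 and 7 (10.7%). With genes of lymph node stroma the counts were 13 and 7 (14.6% of genes), and with macrophage genes 10 and 3 (19.1%). Thymocyte genes called 5 and 2 (5.93%), but only 3 of the 9 genes of that list passed the filter, and 4 were under 0.5 FPKM in every library. Plasma cell genes called 1 and 3 (4.3%). Endothelial genes called 4 and 2 (15.4%), and nerve and Schwann cell genes 3 and 2 (21.8%). The shares of members in these last fits are near the background and are no result about the members. Smooth muscle genes called 0 members against 2.59% of genes, fibroblast genes 0 against 0.764%, germinal centre B cell genes 0 members and 0 genes (9.05% of genes at an unadjusted p), and brown adipocyte genes 0 against 4.46%. Erythroid precursor, white adipocyte, cardiomyocyte, skeletal muscle and mesothelium genes each called 0 members, against at most 0.257% of genes. The scores of lymphocytes, lymph node stroma and macrophages were high in some of the same libraries, and these fits do not separate them. Lien 11 had the highest macrophage mean at 5.98, followed by AngII 9 at 5.43.

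**Figure D5:**
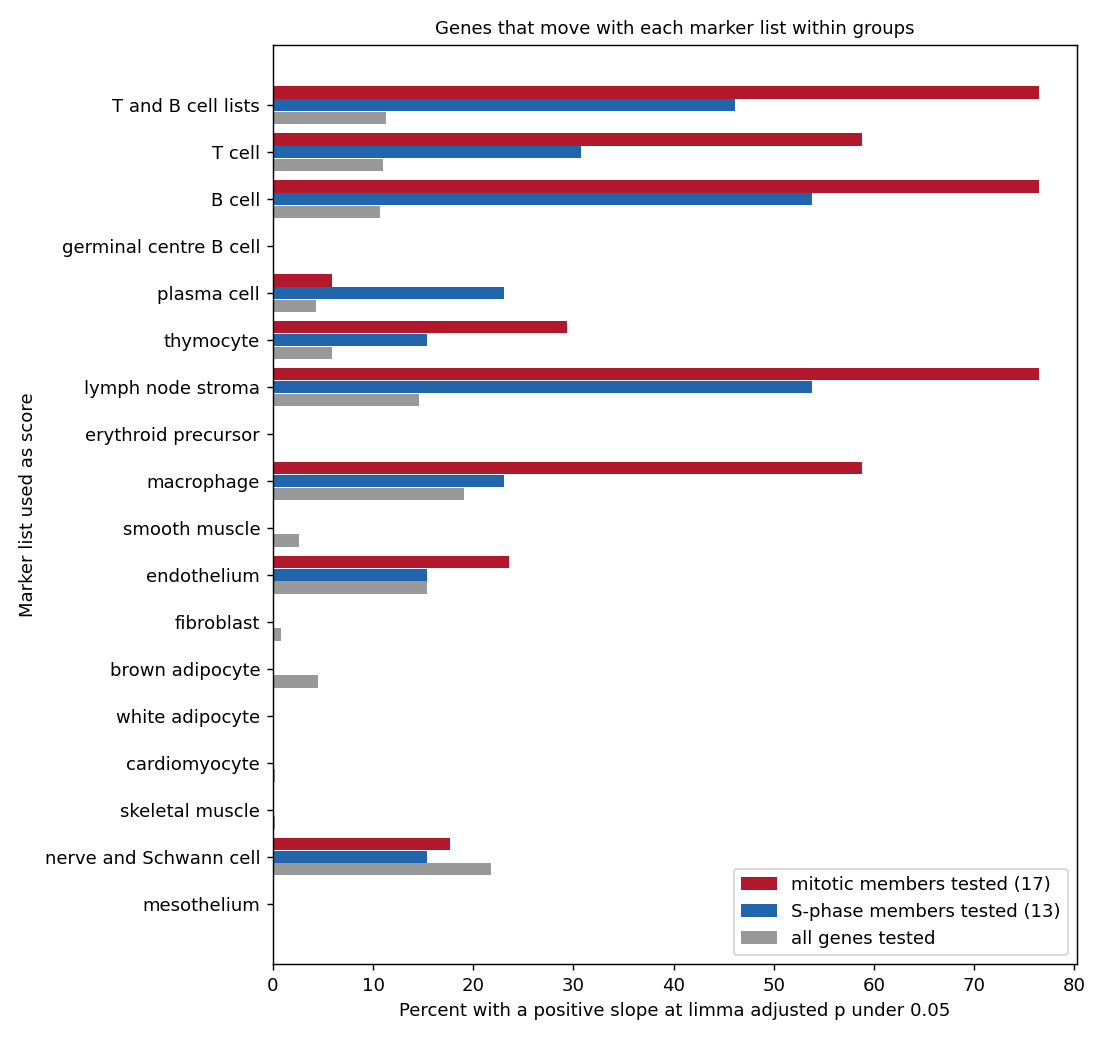
Members called with a positive slope, as a percentage of the mitotic and of the S-phase members tested, beside the percentage of all genes tested, for the fit with each marker list. The lymphoid fit calls 13 of 17 mitotic and 6 of 13 S-phase members beside 11.3% of genes, and the smooth muscle fit calls none.

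The genes outside the 35 whose level was most like the mean of the members tested, by Pearson r over the 15 libraries, were Blnk (0.97), an adaptor of the B cell receptor, Ifi30 (0.97), a lysosomal thiol reductase of antigen-presenting cells, and March1 (0.97), a ubiquitin ligase acting on MHC class II. They were followed by Gbp8, Ptpn6, Flt3, Birc2, Cd180, Cst7, Ccdc88b, Tlr9 and Ikbkb (0.96 each), and Ncf1, Vav1 and Arhgef1 (0.95 each). Without AngII 7 and 9 the values over 13 libraries ran from 0.85 for Arhgef1 to 0.97 for March1.

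Other genes of the cycle were taken from 3 further lists, and none of their members passed in any comparison between groups. Of 35 other S-phase genes 29 were tested, of 53 other mitotic genes 28, and of 24 G1 cyclins, kinases and inhibitors 23. Means were higher in AngII than in NS for 33 of 35, 51 of 53 and 18 of 24, and higher in Lien than in AngII for 2, 8 and 9. In AngII against NS the smallest p were those of Cks2 (log2 difference 0.83), which binds CDKs, and the mitotic kinase Pbk (0.47), of Ccne2 (0.49), cyclin E2, and Uhrf1 (0.69), which maintains DNA methylation, and of E2f4 (0.47) and Cdk4 (0.34). In Lien against AngII they were those of Pole2 (-0.53) and Pole (-0.65), subunits of DNA polymerase epsilon, of Kif18a (-0.31) and Smc4 (-0.59), and of Ccnd2 (-0.64) and Rbl2 (-0.23). In Lien against NS they were those of Cdkn2c (0.45), an inhibitor of CDK4 and CDK6, and Rbl2 (-0.28), of Uhrf1 (0.56) and Rfc4 (0.27), and of Ckap2 (0.46) and Prc1 (0.39).

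Against the lymphoid score 12 of 28 other mitotic, 8 of 29 other S-phase and 3 of 23 G1 genes rose, against 11.3% of all genes. The G1 share is near that background and is no result about that list. The mitotic genes were the condensin subunits Smc4 (slope 0.40) and Ncapd2 (0.28), the cytokinesis regulators Racgap1 (0.47) and Ect2 (0.22), the passenger proteins Incenp (0.38) and Cdca8 (0.34), and Kif22 (0.33), Cks1b (0.31), Tacc3 (0.26), Dlgap5 (0.38), Cks2 (0.30) and Espl1 (0.14), the protease separase. The S-phase genes were the polymerase subunits Pold1 (slope 0.37) and Pole (0.28), the clamp loader subunit Rfc5 (0.24), Ccne1 (0.28), Cdca7 (0.39), the ligase Lig1 (0.25), the flap nuclease Fen1 (0.38) and the DNA methyltransferase Dnmt1 (0.45). The G1 genes were Rbl1 (slope 0.34), E2f4 (0.21) and Ccnd1 (0.53), cyclin D1.

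Exons of 11 members overlap those of another annotated gene, and the labels do not say that strand was used in counting. The overlap covers 67.3% of the exon bases of Gins2 (with Gse1), 29.3% of Kif20a (with Cdc23), 22.8% of Ube2c (with Tnnc2, a troponin of skeletal muscle) and 12.5% of Ccna2 (with Exosc9), each on the opposite strand, and at most 7.25% in each of the remaining pairs. Processed pseudogenes are annotated for Ccnb1, Ccnb2, Tyms and Pcna. The levels of these members are uncertain to that extent.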

How the data were processed

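Ribosomal RNA was depleted and libraries were made from total RNA, per the labels' protocols. The authors deposited 1 table of 131437 transcripts in 15 libraries, whose deposited values were read as FPKM, although no header names the unit. They sum to 477095 to 569546 per library, and low values fell on evenly spaced steps (99.65% to 99.75% within 0.05 of a step). Step sizes differed by 1.23 times between libraries, so relative depth did also. Depth in fragments is unknown, so no counting intervals are given. limma is named in the submitters' processing notes. Aligner, quantifier, genome build and annotation version: not given in the sources used here.

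Of 101208 Ensembl transcripts, 99965 were found in GENCODE M21 (GRCm38) and summed to 32930 genes. The 30229 assembled transcripts were left out. The 15586 genes that reached 0.5 FPKM in 5 or more libraries entered limma (version 3.58.1, R 4.3.3) as log2(FPKM + 1), with a pseudocount of 1, on 3 group means with trend and robust options, two-sided, with Benjamini-Hochberg adjustment. Fold changes on this scale understate those of low genes. Figures were drawn with matplotlib 3.10.9 and tables made with pandas 2.3.3 and numpy 2.4.6, under Python 3.11.15. The fits were tested on simulated data. Promoters are RefSeq's, with 29 of 35 members matched.

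Members, lists and markers were chosen with earlier results of these data known, so no test was made over a list. Values by library are given for 10 fixed members and for the 2 mitotic and 2 S-phase members of smallest p in each comparison and in the slope. In the other lists the 2 genes of smallest p and every gene called are named, and 15 genes most like the members. Alternatives changed the pseudocount, filter, scaling, covariates, weights, transcripts and libraries used.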

Additional observations from a re-analysis of the deposited data

Results flagged for a closer look

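In groups of 5 libraries, the highest or lowest value was marked where its gap to the nearest other library was over 0.71 of the whole range (Dixon's 95% limit). Chance marks about 1 in 20 groups, and 69 groups were examined, for 20 members and the list means, of which 9 were marked. These groups share libraries, and some members were picked by their slope on the lymphoid score, so the 9 cannot be set against that share. Lien 11 stood apart for Kif23 at 2.54 FPKM (other Lien libraries 0.829 to 1.24), for Mcm3 at 5.63 FPKM (3.02 to 3.57) and for Mcm4 at 6.01 FPKM (2.41 to 3.20). It also stood apart in the mean log2(FPKM + 1) of the S-phase members, 2.22 (1.75 to 1.88), and in the lymphoid score, 2.29 (0.42 to 0.86). NS 2 stood apart for Mcm3 at 4.78 FPKM (other NS libraries 2.37 to 2.94), for Tyms at 1.80 FPKM (0.916 to 1.03) and in the lymphoid score, 2.65 (0.67 to 1.10). NS 5 stood apart for Ccnb1 at 0.529 FPKM (0.187 to 0.261).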

How the results depend on the processing

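No member was called between groups under any alternative run, nor in any fit without 1 library. A pseudocount of 0.1 moved the mitotic median to 1.06 between AngII and NS and to 0.63 between Lien and NS. In Lien against AngII, Mki67 turned to 0.12 without AngII 7 and 9 and to 0.0211 with the lymphoid score as a covariate. No other group difference of Mki67, Pcna or the members of smallest p changed sign with that covariate. Only a change of sign was looked for there, and a difference that shrank was not counted.

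In the lymphoid slope, 19 members were called, and 3 of 8 tested with a filter at 2 FPKM (10.2% of genes), 4 after quantile normalization, 6 after scaling to 1 median, 1 without AngII 7 and 9, and 0 without the 4 libraries richest in lymphocyte genes. Leaving out 1 library gave 8 of 30 tested (without AngII 9, 6.45% of genes) to 20 of 30 (without NS 5, 10.6%). The mitotic median slope was 0.15 after quantile normalization, and the S-phase median 0.0865 without the 4 libraries, where Mcm3 (-0.00700) and Mcm5 (-0.0227) turned. Pcna turned to -0.0234 after scaling to 1 median. For the scalings the cause was not tested. The alternatives without those 4 libraries and with protein-coding transcripts alone were chosen after seeing the data. No paired analysis was possible because the replicate numbers run from 1 to 15 and no number occurs in 2 groups. Since depth in fragments is unknown, the precision of members near 0.5 FPKM cannot be given.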
